A study of Danio rerio with 20 samples.

Results

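The comparison described here sets unperturbed cells of the AGM at 36 hpf against unperturbed cells of the CHT at 5 dpf. It takes 8 of the 20 plates of the series, the 4 plates labelled as AGM control (A1 to A4) and the 4 unperturbed CHT plates (W1 and W2 from control embryos, S1 and S2 from siblings of pten mutants). A well counted as a cell from 1500 UMIs on, and cells whose krt4, a keratin gene of the skin, reached 1000 CPM were dropped, which kept 2339 cells (1171 of the AGM and 1168 of the CHT). The whole series holds 6116 wells of that depth.

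The study profiled hematopoietic stem and progenitor cells (HSPCs) of zebrafish with SORT-seq, in which single cells are sorted into wells of a plate and their transcripts are counted by UMIs. Embryos carried tg(kdrl:mCherry-CAAX/cd41:eGFP), a vessel reporter and a low-level HSPC reporter, and pooled AGM or CHT pieces were dissociated and sorted for kdrl+ cd41low cells. A1 to A4, W1 and W2 are labelled wild type, and S1 and S2 hold siblings of ptena-/-ptenb-/- mutants chosen by their appearance. The study describes crosses of ptena+/-ptenb-/- fish for its imaging, and the cross behind S1 and S2 is not given in the sources used here. None of the 8 plates carries a treatment label. The study's methods give DMSO as the control of its inhibitor treatment, and the sources used here do not say whether A1 to A4, W1 and W2 received it. All embryos were kept in PTU, which blocks pigment.

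A1 and A2 were sorted on day 1, A3 on day 10 and A4 on days 10 and 11. S1 was sorted on day 8, S2 on days 8 and 9, and W1 and W2 on day 13. No sort day holds both stages, so age, body site, sort day and the exact sort window cannot be told apart in any difference given here. The sort selected cells by reporter level, which can set the shares of cell types, and the labels of all but A1 and A2 say that not all wells of the plate were used. No gene ID was found for kdrl, and itga2b, which encodes Cd41, had 5 UMIs on the AGM plates and 8 on the CHT plates, so neither reporter gene could check the sort.

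In zebrafish the definitive wave begins when endothelial cells in the floor of the dorsal aorta turn into blood cells, the endothelial to hematopoietic transition (EHT). The new HSPCs leave the AGM, travel in the circulation and lodge in the CHT, a vascular niche in the tail comparable to the mammalian fetal liver. In the definitive wave red cells, granulocytes, macrophages and lymphocytes are all made from HSPCs. The study also describes an earlier primitive wave, which gives primitive red cells and myeloid cells. Which wave the sorted red and myeloid cells came from was not tested.

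Plate totals lay between 2618464 and 5366929 UMIs, and the median cell had 9345, 10706, 14854 and 13790 UMIs on A1 to A4, 8274 and 9551 on W1 and W2, and 12439 and 12518 on S1 and S2. Mitochondrially encoded genes took 5.24% to 6.80% of the UMIs of AGM plates and 9.34% to 10.2% of those of CHT plates. Between 1 and 99 krt4-high cells were left out per plate, the most on A3 (99) and A4 (48).

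The makeup of the sorted cells differed at every gate. Each cell was placed in the first gate whose gene reached a set level, in the order cdh5 (VE-cadherin, endothelium) at 500 CPM, mpx (myeloperoxidase, neutrophils) at 1000, mfap4 (a macrophage gene in zebrafish) at 1000, alas2 (the first enzyme of heme synthesis in red cells) at 200, gata1a or klf1 (erythroid transcription factors) at 100, and myb (a transcription factor of HSPCs) at 100. The gates thus sort cells by one or a few transcripts and are not cell types. In the AGM the myb, mpx and mfap4 gates held most cells, and in the CHT the alas2 and gata1a or klf1 gates did.

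Cells of the alas2 gate made up 0.826%, 0.625%, 2.51% and 1.21% of A1 to A4, and 56.7%, 54.5%, 28.5% and 28.3% of W1, W2, S1 and S2. The gata1a or klf1 gate held 3.31%, 1.56%, 3.94% and 0.909% on A1 to A4 against 22.1%, 25.3%, 43.6% and 37.7% on the CHT plates in the same order. Control CHT plates thus held more alas2 cells than sibling plates and fewer gata1a or klf1 cells, and no AGM plate came near either. As means ± SD over 4 plates a stage, the alas2 gate went from 1.29% ± 0.846 to 42.0% ± 15.7 and the gata1a or klf1 gate from 2.43% ± 1.43 to 32.2% ± 10.2.

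The myb gate held 21.9%, 27.2%, 31.2% and 30.9% of A1 to A4. It held 4.56% and 2.72% of W1 and W2 (12 and 7 cells) and 9.40% and 15.8% of S1 and S2 (33 and 47 cells). The stages did not overlap, with means of 27.8% ± 4.33 and 8.13% ± 5.85.

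The mpx gate held 17.4%, 11.3%, 24.4% and 29.7% of A1 to A4 and 9.51%, 7.78%, 8.26% and 5.72% of W1, W2, S1 and S2. The mfap4 gate was the most even among AGM plates, at 16.6% to 20.6%, and held 0.337% to 2.28% of CHT plates. The cdh5 gate differed within the AGM by sort day, at 25.2% and 20.6% on the plates of day 1 and 2.15% and 2.73% on those of days 10 and 11. Of the CHT plates, W2 had 2 such cells of 257 (0.778%), and W1, S1 and S2 had 0 of 263, 351 and 297, which allows shares of up to 1.14%, 0.855% and 1.01%.

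**Figure D1:**
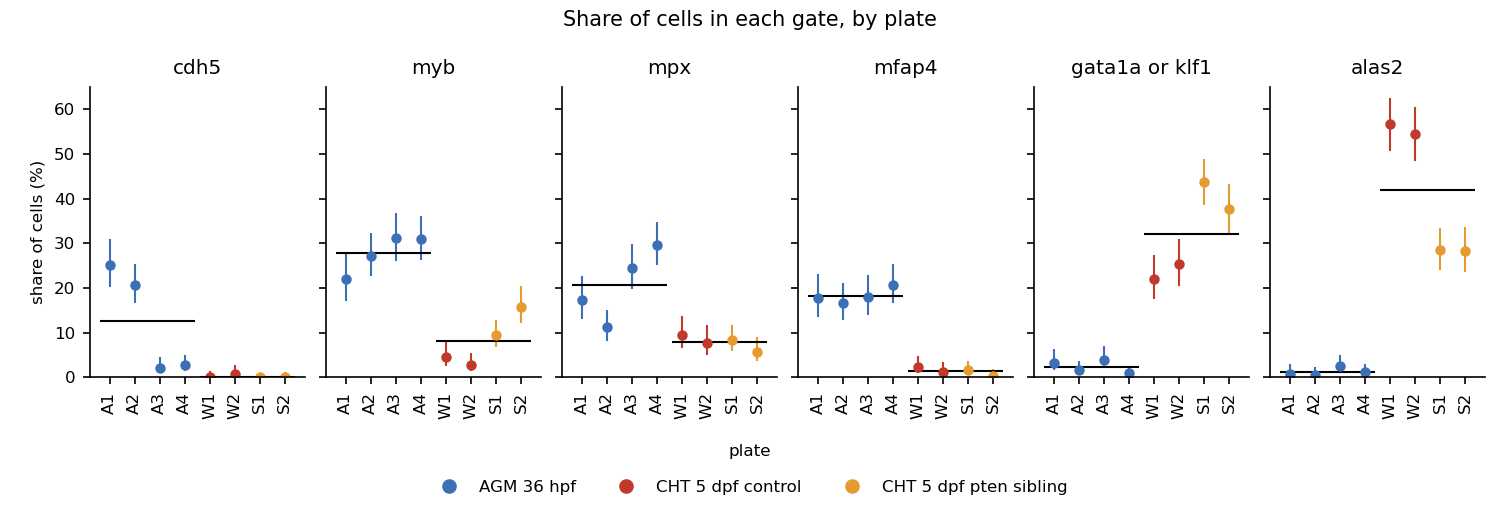
Share of cells in each of 6 gates (percent, vertical axis) on each plate (horizontal axis). Points are plates with 95% Wilson intervals, which cover counting error only, and lines are means over the 4 plates of a stage. The AGM and CHT plates do not overlap in any of the 6 gates, and control and sibling CHT plates stand apart in the alas2, gata1a or klf1 and myb gates.

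For each of the 6 gates the exact permutation test over plates (two-sided) gave p = 0.0286, the smallest that 4 against 4 plates allow, and 0.0286 after adjustment over the 6 gates. The gates are exclusive shares of the same cells, so a larger share in some lowers others and the 6 tests are not independent. The test also counts plates that share a sort day as separate units. Cells that passed the alas2 or the gata1a or klf1 limit were kept out of the myb gate whatever their myb level. The myb share depended on depth and on the limit. In cells of low depth a single UMI already passes the limits of 100 CPM (myb, gata1a and klf1). The median cell of the myb gate had 11593, 11756, 15181 and 12947 UMIs on A1 to A4. On W1, W2, S1 and S2 it had 2947, 10220, 8267 and 9669 UMIs. With the limits doubled the CHT plates were lower by 7.92 percentage points on average (exact p = 0.0571), and with every cell thinned to 1500 UMIs before gating, where any single UMI passes the myb limit, they were higher by 1.74 points (exact p = 0.571). In the CHT, 12.7% of cells lay within 1.5 times of the alas2 limit and 12.8% within 1.5 times of the gata1a limit, and in the AGM 11.6% lay within 1.5 times of the myb limit.

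The gates were read against the study's marker lists. Over the 8 plates the 16 HSPC markers summed to between 5692 and 12150 CPM in the myb gate, lowest in the few cells of W1 and W2, against 2409 to 3005 CPM in the mpx gate. They did not set the myb gate apart from the gata1a or klf1 gate (7148 to 14370 CPM on 7 plates, A4 having fewer than 5 such cells), the cdh5 gate of the AGM plates (5979 to 7582 CPM) or the AGM cells in no gate (7718 to 9376 CPM). CHT cells in no gate held 2490 to 4146 CPM. The 10 neutrophil markers summed to 116800 to 129500 CPM in the mpx gate of AGM plates and 44840 to 65350 CPM in that of CHT plates.

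Summed over all cells of a plate, 2611 of 12174 genes tested were higher in the CHT and 3038 were lower at an adjusted p under 0.05 (edgeR quasi-likelihood test), which is 21.4% and 25.0% of the genes, 46.4% in all. The median log2 fold change (CHT over AGM) over all genes tested was -0.03. Of the genes called, 46.2% were higher, against 30.8% without scaling factors (median -0.30), 26.6% with limma on mean CPM over cells and 65.2% without the cells of the erythroid gates. Counts of list members below are read against these shares, and the lists are described by counts and medians only. Non-overlap between the plates of the stages is likewise description only. Among called genes with a symbol and at least 50 CPM in the higher stage, 528 rising and 1032 falling ones did not overlap. Skin, globin and mitochondrially encoded genes were left out of these counts. In the gate fits below they were 345 and 230 in myb cells and 207 and 127 in mpx cells. Non-overlap was thus found in many genes. It is easier to reach there, with fewer CHT plates. The genes that met the other conditions were not counted, so no share is given. In sums over a plate, fewer cells of a type and less RNA per cell cannot be told apart.

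Erythroid genes were among those that rose. Of 11 globins tested 10 rose (median log2 fold change 4.14), as did 11 of 14 genes of the red cell membrane and carbonic anhydrase (4.66), 11 of 14 genes of heme synthesis and mitochondrial iron import (2.31) and 10 of 13 erythroid regulators (3.53). All 8 thrombocyte/erythrocyte progenitor markers and all 6 erythrocyte progenitor markers of the study rose. Those lists include the gate genes alas2, gata1a and klf1.

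The embryonic beta globin hbbe2 stood at 13.5, 55.1, 144 and 64.4 CPM on A1 to A4 and at 6721, 7774, 3033 and 2840 CPM on W1, W2, S1 and S2 (log2 fold change 6.42 ± 0.79 (SE), edgeR adjusted p = 0.000182). The alpha globin hbae3 stood at 413, 789, 1992 and 1549 CPM and at 17493, 21029, 3931 and 3592 CPM (log2 fold change 3.53 ± 0.77 (SE), edgeR adjusted p = 0.00416). Both were higher on every CHT plate than on any AGM plate, and higher on the control than on the sibling CHT plates.

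One globin went the other way. The beta globin hbbe3 stood at 242, 440.0, 1338 and 1114 CPM on A1 to A4 and at 2.89, 3.32, 18.3 and 11.5 CPM on W1, W2, S1 and S2 (log2 fold change -6.25 ± 0.79 (SE), edgeR adjusted p = 0.000204). Within the alas2 gate of A3, its 7 cells together held hbbe3 at 59910 CPM and hbbe2 at 6643 CPM, whereas the alas2 gate of the CHT plates held hbbe3 at 3.94 to 50.2 CPM and hbbe2 at 7439 to 11570 CPM. Hbbe2 was thus close to the CHT levels in these 7 cells and hbbe3 far above them, and A1, A2 and A4 had too few alas2 cells for a value.

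The anion exchanger slc4a1a (band 3) stood at 29.4, 58.8, 131 and 143 CPM on A1 to A4 and at 3965, 4179.6, 2977 and 2563 CPM on W1, W2, S1 and S2 (log2 fold change 5.43 ± 0.58 (SE), edgeR adjusted p = 8.46e-05). The erythropoietin receptor gene epor stood at 9.14, 14.2, 9.07 and 8.59 CPM and at 214, 203, 279 and 242 CPM (log2 fold change 4.75 ± 0.20 (SE), edgeR adjusted p = 2.31e-06). The transcription factor tal1, of HSPCs and of the erythroid line, stood at 50.5, 56.8, 59.1 and 32.7 CPM and at 449, 504, 482 and 479 CPM (log2 fold change 3.53 ± 0.21 (SE), edgeR adjusted p = 4.91e-06). For none of these did the stages overlap, and epor and tal1 varied little among the CHT plates.

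Of the heme genes, hmbsb, uros and fech, enzymes of the pathway, rose by 4.60, 4.30 and 3.91 on the log2 scale. The exceptions were alas1, the housekeeping form of the first enzyme (log2 fold change -1.63 ± 0.28 (SE), edgeR adjusted p = 0.00125), which fell, and the carrier gene slc25a38a (log2 fold change -1.47 ± 0.50 (SE), edgeR adjusted p = 0.0338), whose call was lost without A2 (0.0863), A4 (0.0512) or W2 (0.0756). Of 11 iron handling genes, 3 rose and 3 fell (median 0.05). The ferritin heavy chain gene fth1a (log2 fold change 2.72 ± 0.34 (SE), edgeR adjusted p = 0.00019) and the iron importer slc11a2 (log2 fold change 2.35 ± 0.21 (SE), edgeR adjusted p = 3.27e-05) rose, while the iron exporter slc40a1 (log2 fold change -1.86 ± 0.31 (SE), edgeR adjusted p = 0.000988) and the heme oxygenase hmox1a (log2 fold change -2.62 ± 0.54 (SE), edgeR adjusted p = 0.00322) fell. Without the cells of both erythroid gates, an alternative chosen after seeing the data, the calls of alas1, slc25a38a, slc40a1 and hmox1a were lost. Their log2 fold changes were then -0.049, 0.20, 0.39 and -0.45 (edgeR adjusted p = 0.957, 0.858, 0.572 and 0.571). That alternative leaves out most CHT cells and few AGM cells, so depth falls mainly on the CHT side.

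Cell division genes also rose in the sums, 29 of 37 mitosis genes (median 0.97) and 22 of 33 DNA replication genes (median 0.92), with 0 lower in either list. The proliferation marker mki67 stood at 207, 317, 205 and 176 CPM on A1 to A4 and at 466, 436, 311 and 313 CPM on W1, W2, S1 and S2 (log2 fold change 1.04 ± 0.24 (SE), edgeR adjusted p = 0.00553). Its stages overlapped, since A2 exceeded the sibling plates. With the cells of both erythroid gates left out, an alternative chosen after seeing the data, the mitosis median was -0.09 with 0 of 34 genes called in either direction, and the DNA replication median was -0.22 with 0 of 31 higher and 2 lower. In the fit over myb cells given below, 0 of 34 mitosis genes were higher and 5 lower (median -0.67). Of 31 DNA replication genes 1 was higher and 3 lower (median -0.355), where 4.84% of all genes tested were lower. In mpx cells 0 of 28 mitosis and 0 of 18 DNA replication genes were called (medians 0.697 and 0.298).

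Endothelial genes and EHT markers were lower. Of 22 endothelial genes tested 19 fell (median -3.71) and 0 rose, and of the 13 EHT markers of the study 11 fell (median -2.81). The endothelial transcription factor sox18 stood at 175, 231, 72.1 and 70.01 CPM on A1 to A4 and at 0, 3.65, 0 and 0.962 CPM on W1, W2, S1 and S2 (log2 fold change -6.71 ± 0.79 (SE), edgeR adjusted p = 0.000144). The Notch ligand dll4 stood at 269, 350.4, 57.5 and 40.7 CPM and at 0, 8.63, 2.28 and 0.721 CPM (log2 fold change -5.63 ± 0.97 (SE), edgeR adjusted p = 0.00116). Both were higher on the AGM plates of day 1 than on those of days 10 and 11, and even the lower AGM plates lay above every CHT plate.

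The surface protein gene cd34, known from endothelium and progenitors, stood at 974, 1176, 669 and 484 CPM on A1 to A4 and at 17.3, 23.9, 66.2 and 90.9 CPM on W1, W2, S1 and S2 (log2 fold change -3.80 ± 0.48 (SE), edgeR adjusted p = 0.000213). Cdh5 itself stood at 268, 239, 12.8 and 24.1 CPM and at 0.361, 3.65, 0.19 and 0.721 CPM (log2 fold change -6.54 ± 1.19 (SE), edgeR adjusted p = 0.0016). The keratins krt8 and krt18a.1, which the study lists as EHT markers, had log2 fold changes of -2.75 and -5.01 (edgeR adjusted p = 0.000272 and 0.000106). The aquaporin gene aqp1a.1 was not called (log2 fold change 0.43, edgeR adjusted p = 0.589).

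Myeloid genes fell in the sums as well, 17 of 19 neutrophil granule and oxidase genes (median -2.49) and 19 of 21 macrophage genes (median -2.15), with 0 higher. The lysozyme gene lyz stood at 18324, 14057, 26043 and 28854 CPM on A1 to A4 and at 1914, 2025, 1137 and 502 CPM on W1, W2, S1 and S2 (log2 fold change -3.72 ± 0.50 (SE), edgeR adjusted p = 0.000286). The macrophage gene mfap4 (ENSDARG00000090783) stood at 1154, 687, 942 and 1246 CPM and at 54.8, 18.6, 27.2 and 21.9 CPM (log2 fold change -4.80 ± 0.41 (SE), edgeR adjusted p = 2.73e-05). Every CHT plate was below every AGM plate for both. The neutrophil proteases mmp9 (log2 fold change -0.13, edgeR adjusted p = 0.803) and mmp13a (-0.91 and 0.207) were the 2 neutrophil genes not called, and they were higher in CHT cells of the mpx gate.

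The progenitor genes split. Of 15 progenitor transcription factors 4 rose and 7 fell (median -0.72), and of the 16 HSPC markers 4 rose and 6 fell (median 0.09). Myb stood at 143, 141, 134 and 147 CPM on A1 to A4 and at 354, 358, 727 and 651 CPM on W1, W2, S1 and S2 (log2 fold change 2.11 ± 0.23 (SE), edgeR adjusted p = 0.000101), higher on every CHT plate although fewer CHT cells fell in the myb gate. In the CHT, myb stood at 324 to 809 CPM in the alas2 gate and 515 to 883 CPM in the gata1a or klf1 gate, against 317 to 772 CPM in the myb gate itself. The homeobox factor meis1b stood at 141, 211, 100 and 107 CPM on A1 to A4 and at 8.30, 3.98, 11.2 and 14.2 CPM on the CHT plates (log2 fold change -3.61 ± 0.33 (SE), edgeR adjusted p = 3.52e-05). The repressor gfi1aa (log2 fold change -4.31 ± 0.70 (SE), edgeR adjusted p = 0.000815) and the zinc finger factor gata2b (log2 fold change -2.30 ± 0.41 (SE), edgeR adjusted p = 0.00135), which acts upstream of runx1 in zebrafish hemogenic endothelium, also fell. Without the cells of both erythroid gates the call of gata2b was lost (log2 fold change -0.84, edgeR adjusted p = 0.357).

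Genes tied to an embryonic program were mixed as a list and uneven among members. Of 13 genes of the lin28 and let-7 axis 4 rose and 6 fell (median -0.54), and of 12 DNA methylation genes 3 rose and 3 fell (median -0.36). Lin28a had 13 UMIs on the AGM plates and 6 on the CHT plates and was not tested. The chromatin protein gene hmga1a stood at 1939, 2945, 3476 and 2747 CPM on A1 to A4 and at 805, 774, 1024 and 1182 CPM on W1, W2, S1 and S2 (log2 fold change -1.33 ± 0.23 (SE), edgeR adjusted p = 0.0013). The de novo DNA methyltransferase gene dnmt3ba stood at 302, 378, 363 and 269 CPM and at 32.1, 36.5, 53.1 and 68.5 CPM (log2 fold change -2.55 ± 0.23 (SE), edgeR adjusted p = 3.52e-05), and dnmt3bb.1 at 254, 353, 167 and 146 CPM and at 37.5, 37.8, 95.5 and 86.8 CPM (log2 fold change -1.57 ± 0.33 (SE), edgeR adjusted p = 0.0033). None of the 3 overlapped between stages, and both methyltransferase genes were lower on W1 and W2 than on S1 and S2. The maintenance methyltransferase dnmt1 rose (log2 fold change 1.19 ± 0.17 (SE), edgeR adjusted p = 0.000465), and with the erythroid gates left out its log2 fold change was -0.10.

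Of the 12 named genes with the largest rise, 4 were transcripts of the si:dkey-21e2 series and 6 were muscle genes. Si:dkey-21e2.15 had 0 UMIs on the AGM plates and stood at 649.6, 384, 348 and 61.8 CPM on W1, W2, S1 and S2, at least 1730-fold higher by the floor of 3 UMIs over the AGM plates. Si:dkey-21e2.16 and si:dkey-21e2.13, also at 0 UMIs in the AGM, were at least 1350-fold and 645-fold higher, and si:dkey-21e2.4 was higher by 943-fold (95% counting interval 261 to 7790) with 2 UMIs in the AGM. These transcripts came from few cells: the 5 cells with most of their UMIs held 96.8% of them on S1, 96.1% on S2, 95.2% on W1 and 94.6% on W2.

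The nuclear receptor gene nr1d1, a repressor of the circadian clock, had 1 UMI on the AGM plates. It stood at 39.3, 34.2, 99.3 and 69.2 CPM on W1, W2, S1 and S2 (higher by 1050-fold (95% counting interval 189 to 41700), log2 fold change 9.47 ± 0.61 (SE), edgeR adjusted p = 8.36e-06). At least 1 UMI of nr1d1 was found in 26.2%, 28.8%, 54.7% and 44.8% of cells of these plates, and in 0 of 242, 320 and 279 cells of A1, A2 and A3 and 1 of 330 cells of A4. It was present in every CHT gate with at least 5 cells, among them the alas2 gate at 39.4 to 114.5 CPM, apart from the mpx gate of W2. The laminin chain gene lamc3 was the other gene of this group outside muscle, at 0.397, 0.49, 0 and 0.419 CPM on A1 to A4 and 73.2, 77.3, 47.6 and 38.5 CPM on W1, W2, S1 and S2 (log2 fold change 7.64 ± 0.51 (SE), edgeR adjusted p = 8.88e-06).

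The muscle genes were the parvalbumins pvalb1, pvalb2 and pvalb4, the calcium pump atp2a1l, the troponin TNNI2 and the myosin binding protein mybphb. Pvalb2 stood at 1.59, 0.735, 6.51 and 21.4 CPM on A1 to A4 and at 5540.5, 1588, 3627 and 248 CPM on W1, W2, S1 and S2 (log2 fold change 8.61 ± 1.31 (SE), edgeR adjusted p = 0.000597). Of the 20 muscle genes tested 19 rose (median 5.92), with list sums of 72.2 to 628 CPM on AGM plates and 1552 to 29980 CPM on CHT plates. The sort did not aim at muscle cells, and muscle transcripts were spread over the gates of blood cells. In the mpx gate the list summed to 4720, 1125, 4333 and 298 CPM on W1, W2, S1 and S2 and to 123, 136, 204 and 1251 CPM on A1 to A4, and in the myb gate to 5807, 1074, 4349 and 254 CPM on the CHT plates and 34.8 to 144 CPM on the AGM plates. Over the blood gates with a value the list summed to 4172 to 4581 CPM on S1, 1074 to 1220 CPM on W2 and 254 to 1216 CPM on S2, and on W1 to 4250 to 5807 CPM apart from the alas2 gate (44240 CPM). Cells in no gate held 4592, 112300, 169200 and 6907 CPM on W1, W2, S1 and S2, against 43.9 to 79.9 CPM on the AGM plates. Cells with at least 20000 CPM over the list numbered 4, 4, 3 and 1 on S1, S2, W1 and W2, and 3 on A4.

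Erythroid transcripts were also found outside the erythroid gates. Hbbe2 stood at 962.6, 1387, 344.5 and 236 CPM in the mpx gate of W1, W2, S1 and S2 and at 0, 0, 4.27 and 43.5 CPM in that of A1 to A4. At least 1 UMI of hbbe2 was found in 99.6%, 99.2%, 95.4% and 93.6% of all cells of these CHT plates and 2.07% to 9.39% of cells of AGM plates. In the AGM lyz was found in at least 95.6% of the cells of each of A1 to A4, and in 73.0%, 79.8%, 46.2% and 22.6% of cells of W1, W2, S1 and S2. Mpx was found in 48.1% to 81.0% of cells of AGM plates and 22.6% to 40.2% of cells of CHT plates. Hbae3 was found in 35.6% to 73.8% of cells of AGM plates and in at least 92.3% of the cells of each CHT plate. The part of these spread transcripts in the results below was not tested.

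**Figure D2:**
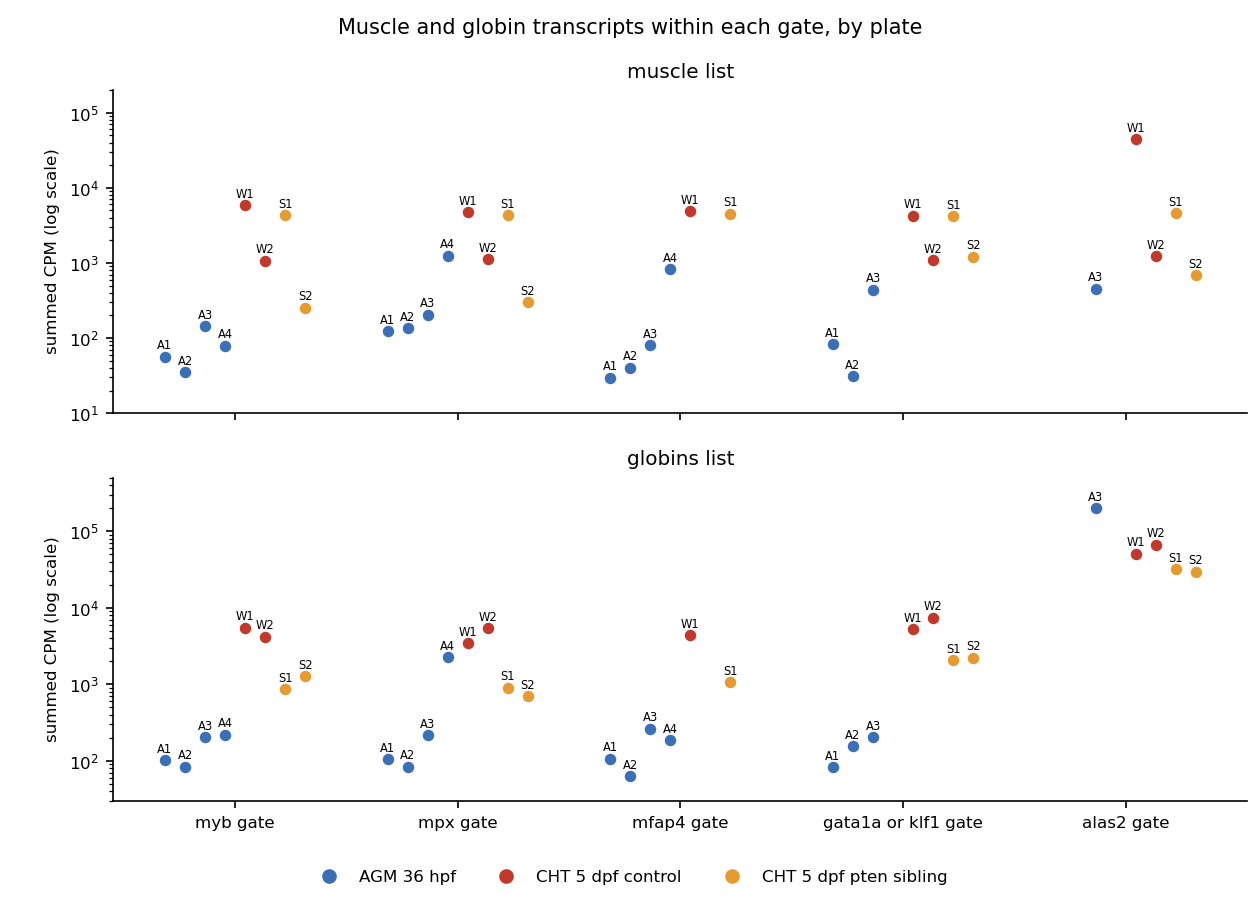
Summed CPM of the muscle list (top) and of the globins (bottom), on a log scale, within 5 gates, for each plate with at least 5 cells in the gate. Each point is a plate, named beside it. Muscle transcripts stand at 4172 to 4581 CPM over the gates of S1, at 254 to 1216 CPM over those of S2 and at 4250 to 5807 CPM over those of W1 other than the alas2 gate, which stands at 44240 CPM, and globins are highest in the alas2 gate.

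On the lower side the 12 named genes were sox18, cdh5, dll4, mfap4 and 8 others. The Wnt pathway inhibitor tmem88a stood at 105, 79.1, 3.02 and 13.2 CPM on A1 to A4 and had 3 UMIs on all CHT plates (lower by 214-fold (95% counting interval 73.0 to 1040)). The cystatin gene cst14b.2 stood at 217, 96.2, 313 and 664 CPM and at 0.361, 0.664, 0.761 and 4.57 CPM (log2 fold change -7.41 ± 0.87 (SE), edgeR adjusted p = 0.000144). The DNase gene dnase1l4.1 stood at 523, 806, 446 and 413 CPM and at 12.6, 11.0, 9.51 and 12.5 CPM (log2 fold change -5.31 ± 0.25 (SE), edgeR adjusted p = 2.38e-06). The secretogranin scg3 was high on A3 and A4 only, at 5.17, 6.12, 167 and 136 CPM on A1 to A4 against 1.08, 2.32, 1.52 and 3.12 CPM (log2 fold change -5.14 ± 1.23 (SE), edgeR adjusted p = 0.00685). The others were the Hairy-related gene her2 (-5.46), si:dkey-97i18.5 (-5.35), MFAP4 (ENSDARG00000088745, -5.07) and spi2 (-5.02, all log2 fold changes).

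Leaving out the cells of both erythroid gates, an alternative chosen after seeing the data, left 654 of 9714 genes higher (6.73%) and 349 lower (3.59%), 10.3% in all. The alas2 and the gata1a or klf1 gates held on average 42.0% and 32.2% of CHT cells but 1.29% and 2.43% of AGM cells, so the CHT side lost far more depth. Neutrophil genes were then 2 of 20 higher and 1 lower (median -0.05), macrophage genes 1 of 20 higher and 1 lower (-0.36) and endothelial genes 0 of 19 higher and 4 lower (-1.61). Of 32 genes of the immediate early and dissociation stress list 10 were higher and 0 lower (median 0.63), where over all cells 2 were higher and 13 lower (-0.71). The antigen presentation list turned from 3 higher and 5 lower of 14 (-0.47) to 5 higher and 1 lower of 13 (0.97), and the chemokine and homing list from 2 higher and 6 lower of 12 (-1.36) to 5 higher and 0 lower of 11 (0.99). The transcription factor gene cebpb was lower over all cells (log2 fold change -0.98 ± 0.20 (SE), edgeR adjusted p = 0.00305). That call was lost with cells thinned to 1500 UMIs (log2 fold change -0.125, edgeR adjusted p = 0.651). Without the erythroid gates cebpb was higher (log2 fold change 1.102, edgeR adjusted p = 0.00748). Of the genes named over all cells 45 kept direction and call, 14 lost the call and 6 turned in sign. Among those that lost it, lyz had a log2 fold change of -0.98 (edgeR adjusted p = 0.262), krt8 of -0.87 (0.14) and mki67 of 0.013 (0.989). For cdh5 (-4.48, edgeR adjusted p = 0.0611), dll4 (-3.41, 0.0931) and hbae3 (3.43, 0.0539) the change stayed large but missed the threshold. Whether a lost call came from fewer CHT cells or from their makeup was not tested.

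**Figure D3:**
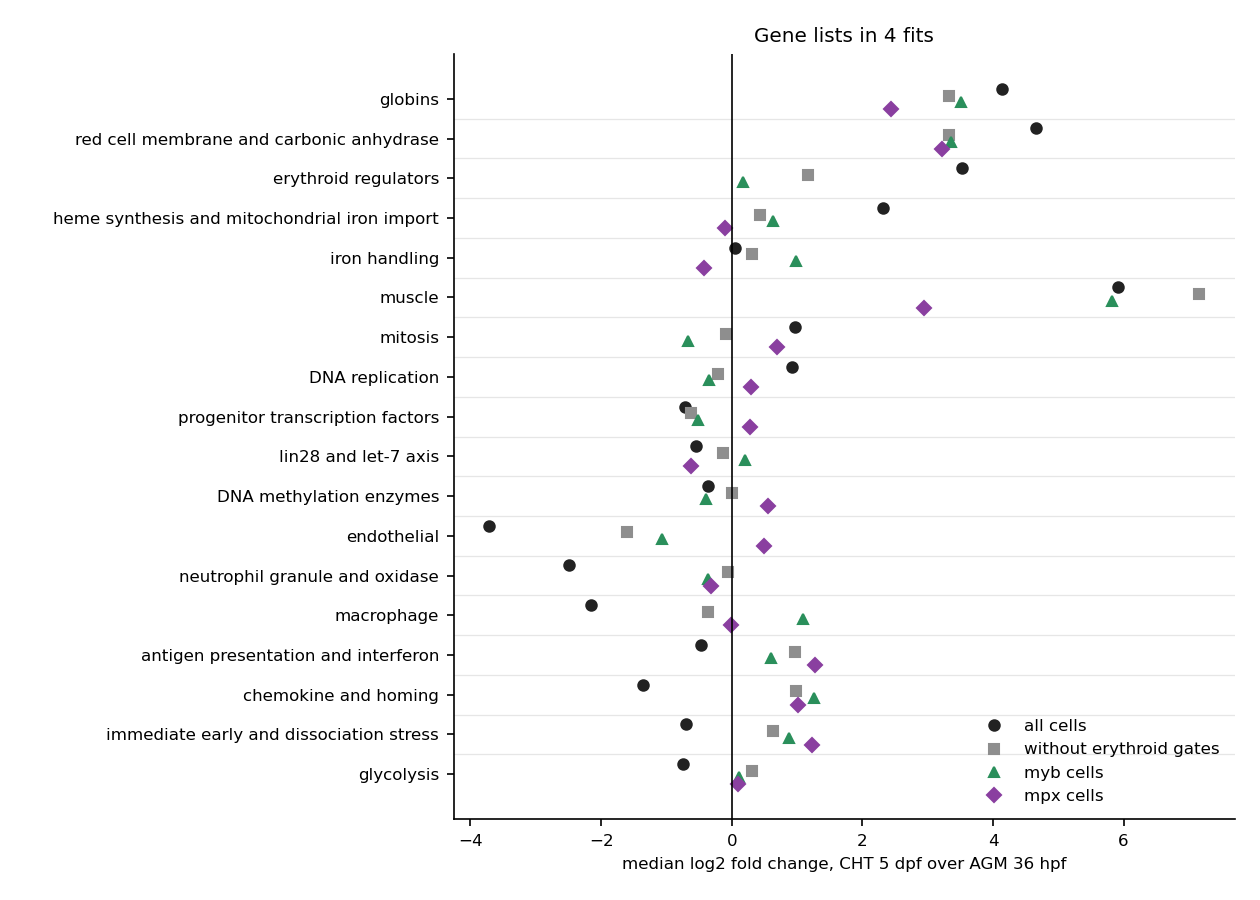
Median log2 fold change (CHT 5 dpf over AGM 36 hpf, horizontal axis) of 18 gene lists (vertical axis) in 4 fits: all cells, all cells without the erythroid gates, cells of the myb gate and cells of the mpx gate. Points are medians over the tested members where at least 3 were tested, with no error. The endothelial median moves from -3.71 over all cells to -1.07 in myb cells, and the stress list median from -0.71 over all cells to 0.88 in myb cells and 1.23 in mpx cells.

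Cells of the myb gate were compared apart from all others. The fit used A1 to A4 (53, 87, 87 and 102 cells) and S1 and S2 (33 and 47 cells), since W1 and W2 had fewer than 20 such cells, so the CHT side holds siblings of pten mutants only. Of 8444 genes tested 718 were higher in the CHT (8.50%) and 409 lower (4.84%), 13.3% in all, with a median log2 fold change of -0.02. Without S1 the counts were 215 and 47, without S2 290 and 138, and without A4 531 and 228. The CHT cells of this gate were less deep, with medians of 8267 and 9669 UMIs on S1 and S2 against 11593 to 15181 on A1 to A4. The values of W1 and W2 are given for single genes. They come from 12 and 7 cells, with medians of 2947 and 10220 UMIs, so low values there rest on few UMIs. Whether W1 and W2 follow S1 and S2 was not tested.

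The DNA methyltransferase gene dnmt3ba stood at 731, 856, 815 and 677 CPM in the myb cells of A1 to A4 and at 115 and 189 CPM in those of S1 and S2 (log2 fold change -1.90 ± 0.23 (SE), edgeR adjusted p = 0.000795). The few myb cells of W1 and W2 held 183 and 68.9 CPM. The stages were apart by a wide margin, and the call was kept without any 1 plate. The related genes dnmt3bb.1 (log2 fold change -1.11, edgeR adjusted p = 0.048) and dnmt3ab (-1.30 and 0.0331) were lower too, each with a call that was lost without either S1 or S2 and without 2 AGM plates (edgeR adjusted p up to 0.224 and 0.226 without 1 plate).

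The endothelial genes sox18 and dll4 fell within the gate as well. Sox18 stood at 265, 252, 127 and 152 CPM on A1 to A4 and at 0 and 4.45 CPM on S1 and S2 (lower by 73.5-fold (95% counting interval 20.3 to 608)), with 0 CPM in the myb cells of W1 and W2. Cd34 fell (log2 fold change -1.31 ± 0.20 (SE), edgeR adjusted p = 0.00225), and of 13 endothelial genes 6 fell and 0 rose (median -1.07). The call of dll4 (log2 fold change -5.09 ± 1.08 (SE), edgeR adjusted p = 0.012) was lost without S1 (0.0776) or S2 (0.125).

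Of 12 progenitor transcription factors tested 3 rose and 3 fell. Tal1 stood at 53.4, 63.9, 93.1 and 61.8 CPM on A1 to A4 and at 151 and 209 CPM on S1 and S2 (log2 fold change 1.83 ± 0.25 (SE), edgeR adjusted p = 0.00136). Meis1b stood at 269.8, 340.1, 204 and 241 CPM and at 85.7 and 82.3 CPM (log2 fold change -1.22 ± 0.26 (SE), edgeR adjusted p = 0.0113), with a call lost without S1 (0.0975) or S2 (0.0842), and gfi1aa at 16.3, 41.5, 127 and 79.7 CPM and at 0 and 4.45 CPM (log2 fold change -4.26 ± 1.202 (SE), edgeR adjusted p = 0.0412), with a call lost without S1 (0.244), S2 (0.164) or A4 (0.0611). Tal1 was higher on S1 and S2 than on any AGM plate, and meis1b and gfi1aa were lower. The myb cells of W1 held 142 CPM of tal1, and those of W2 held 82.6 CPM, within the AGM range. With the gate limits halved the call of tal1 was lost (0.0886). Gata2b was not called (log2 fold change -0.32, edgeR adjusted p = 0.477).

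Myca and mycb rose. Myca stood at 13.3, 6.64, 16.7 and 17.2 CPM on A1 to A4 and at 109 and 125 CPM on S1 and S2 (log2 fold change 3.52 ± 0.34 (SE), edgeR adjusted p = 0.000175), and mycb, an HSPC marker of the study, at 10.4, 15.8, 15.3 and 4.81 CPM and at 82.7 and 66.7 CPM (log2 fold change 3.10 ± 0.40 (SE), edgeR adjusted p = 0.000988). In the myb cells of W1 and W2 myca stood at 142 and 96.4 CPM. The HSPC marker pmp22b fell (log2 fold change -1.002 ± 0.17 (SE), edgeR adjusted p = 0.00373), a call lost without S1 (0.0606), and of 15 HSPC markers tested 3 rose and 4 fell (median -0.03).

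Of 7 genes of the chemokine and homing list tested in the myb cells 4 rose and 0 fell (median 1.26). The chemokine receptor gene ccr9a stood at 47.4, 40.6, 19.6 and 57.7 CPM on A1 to A4 and at 278 and 400.5 CPM on S1 and S2 (log2 fold change 3.47 ± 0.34 (SE), edgeR adjusted p = 0.000193), and at 162 and 179 CPM in the myb cells of W1 and W2. The receptor tyrosine kinase gene kita, the receptor for Kit ligand, stood at 2.97, 8.29, 10.2 and 10.3 CPM and at 88.6 and 105 CPM (log2 fold change 3.93 ± 0.34 (SE), edgeR adjusted p = 9.12e-05). It stood at 60.9 and 0 CPM on W1 and W2. The Cxcl12 receptor gene cxcr4b (log2 fold change 1.26 ± 0.35 (SE), edgeR adjusted p = 0.037) overlapped between stages, at 405, 178, 323 and 471 CPM and at 455 and 769.8 CPM, and lost its call without S1 (0.0776), S2 (0.365) or A3 (0.0581).

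The forkhead factor foxo3b, a target of PI3K signaling that acts in stress resistance, stood at 28.2, 39.0, 25.5 and 39.8 CPM on A1 to A4 and at 239 and 329 CPM on S1 and S2 (log2 fold change 3.52 ± 0.24 (SE), edgeR adjusted p = 2.63e-05), with 162 and 152 CPM on W1 and W2. The thioredoxin-interacting protein gene txnipa stood at 185, 151, 204 and 116 CPM and at 8.86 and 13.3 CPM (log2 fold change -3.41 ± 0.41 (SE), edgeR adjusted p = 0.000667). On W1 and W2 it stood at 20.3 and 234.3 CPM. One rose and the other fell without overlap among the plates fitted, and both calls were kept without any 1 plate. In the 7 myb cells of W2, however, the txnipa level lay above every AGM plate, and with the gate widened to all cells with myb at 100 CPM or more its log2 fold change was -0.28 (edgeR adjusted p = 0.315). Ptenb, 1 of the pten paralogs, was at 60.8, 73.0, 80.0 and 74.8 CPM and at 94.5 and 97.9 CPM (log2 fold change 0.83 ± 0.22 (SE), edgeR adjusted p = 0.031), a call lost without S1 (0.133), S2 (0.203) or A1 (0.0518). W2, at 68.9 CPM, lay within the AGM range while W1 was at 264 CPM. The ptenb genotype of S1 and S2 is not given in the sources used here. Genotype and stage thus cannot be told apart for ptenb in this fit. Ptena did not pass the test (log2 fold change 0.15, edgeR adjusted p = 0.709).

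Of 27 immediate early and stress genes tested in myb cells 13 rose and 0 fell (median 0.88), among them the nuclear receptor gene nr4a1 at 117, 79.6, 53.1 and 105 CPM and at 355 and 305 CPM (log2 fold change 2.32 ± 0.28 (SE), edgeR adjusted p = 0.000743). The summed level of the list overlapped between stages, at 11820 to 13850 CPM on AGM plates and 14840 and 13150 CPM on S1 and S2. In the few myb cells of W1 and W2 it was 11580 and 10570 CPM, below every AGM plate. Of 9 myeloid progenitor markers 5 rose and 0 fell (median 1.26), with cebpb at 747, 605, 584 and 807 CPM on A1 to A4 and at 1344 and 1778 CPM on S1 and S2 (log2 fold change 1.61 ± 0.20 (SE), edgeR adjusted p = 0.000743). The antigen presentation and interferon list was split in myb cells, with 5 higher and 3 lower of 12 tested (median 0.594). Of its members cd74a, the invariant chain of class II antigen presentation, stood at 1.48, 0.8295, 0 and 0 CPM and at 35.5 and 26.7 CPM (log2 fold change 6.16 ± 0.93 (SE), edgeR adjusted p = 0.0021), and at 0 in the myb cells of W1 and W2. For nr4a1 and cebpb the stages did not overlap. With the gate widened to all cells with myb at 100 CPM or more, erythroid cells included, an alternative chosen after seeing the data, the log2 fold changes of cebpb (-1.37), nr4a1 (-0.50), cxcr4b (-0.25), b2ml (-0.19) and ptenb (-0.65) turned negative, and ccr9a lost its call (0.55, edgeR adjusted p = 0.285).

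**Figure D4:**
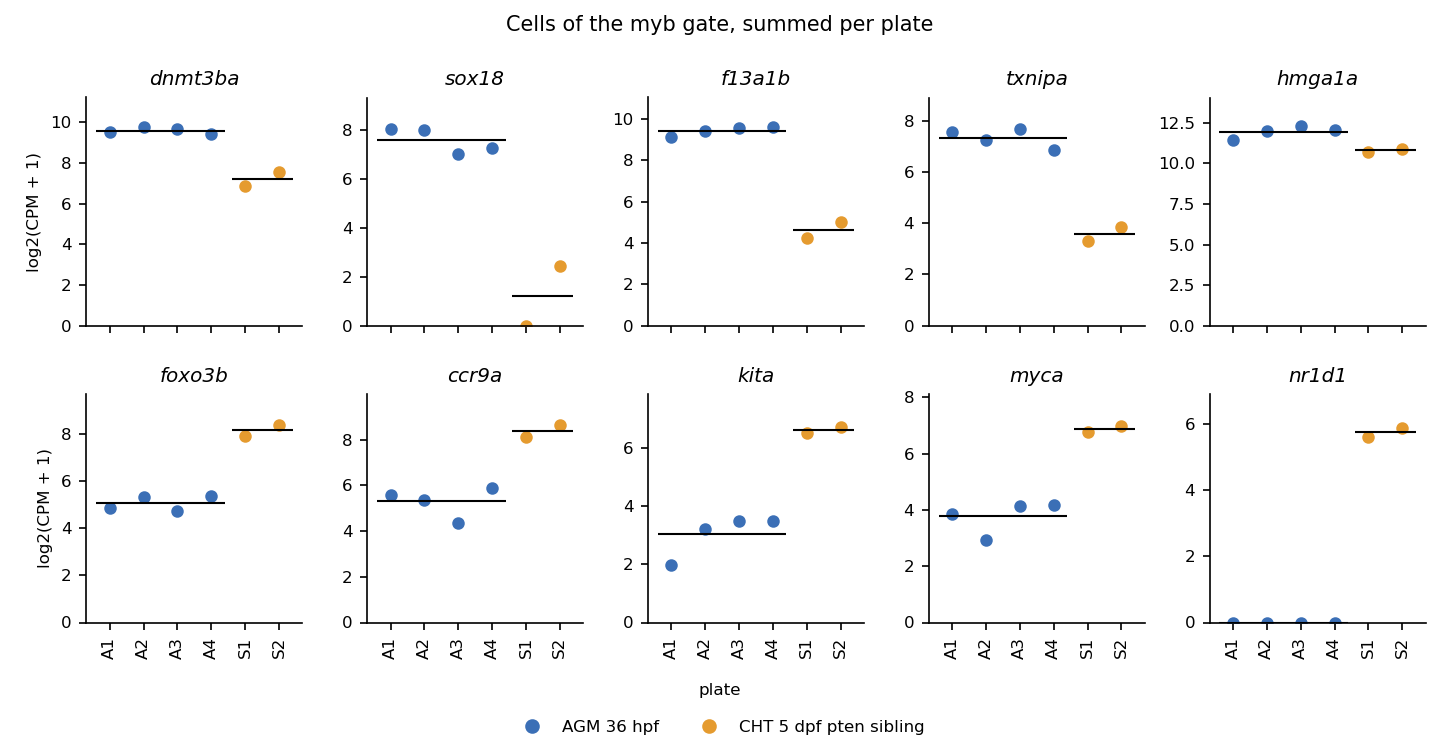
Levels of 10 genes in cells of the myb gate, as log2(CPM + 1) on the vertical axis, for the 4 AGM plates and the 2 sibling CHT plates on the horizontal axis. Points are plates and lines are means of a stage. Dnmt3ba, sox18, f13a1b, txnipa and hmga1a are lower on S1 and S2, and foxo3b, ccr9a, kita, myca and nr1d1 are higher, without overlap. For sox18, f13a1b and nr1d1 the rule for naming genes required this.

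By size, the 10 named genes that rose most in myb cells were si:dkey-21e2.15, nr1d1, slc22a7a, si:ch211-14a17.10, mfap4.7, sftpba, aox5, tpma, hbbe2 and pvalb2. Nr1d1 had 0 UMIs in the AGM myb cells and 47.3 and 57.8 CPM on S1 and S2, at least 83.7-fold higher. On W1 and W2 it stood at 40.6 and 41.3 CPM, from few UMIs. Mfap4.7 stood at 0, 0, 1.45 and 1.37 CPM and at 112 and 131 CPM (log2 fold change 7.39 ± 0.46 (SE), edgeR adjusted p = 1.73e-05) and at 0 on W1 and W2. Si:dkey-21e2.15 and si:ch211-14a17.10 were uneven, at 11.8 and 558 CPM and 14.8 and 278 CPM on S1 and S2. Hbbe2, pvalb2 and tpma are globin and muscle genes that were found across gates, and the calls of pvalb2 (0.146) and tpma (0.124) were lost without S1.

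The 10 that fell most were si:ch211-121a2.2, sox18, dnase1l4.1, ptgdsb.1, dll4, drll.1, rnf223, f13a1b, gfi1aa and cnot4a. Si:ch211-121a2.2 had 0 UMIs in the myb cells of S1 and S2 but 264 and 469 CPM in those of W1 and W2, near or above the 141, 51.4, 185 and 211 CPM of A1 to A4, so that it set siblings of pten mutants apart from all other plates and not the stages. The coagulation factor XIII gene f13a1b stood at 556, 675, 751 and 767 CPM on A1 to A4 and at 17.7 and 31.1 CPM on S1 and S2 (log2 fold change -4.34 ± 0.29 (SE), edgeR adjusted p = 2.63e-05), and dnase1l4.1 at 1121, 1495, 832 and 963 CPM and at 14.8 and 24.5 CPM (log2 fold change -5.34 ± 0.37 (SE), edgeR adjusted p = 2.63e-05). Both calls were kept without any 1 plate, while those of si:ch211-121a2.2 (0.0564 and 0.0594) and drll.1 (0.0559 and 0.0609) were lost without S1 or S2 and that of ptgdsb.1 (0.0525) without S2. Hmga1a (log2 fold change -0.75 ± 0.20 (SE), edgeR adjusted p = 0.035) and the RNA-binding protein gene igf2bp1 (log2 fold change -0.81 ± 0.22 (SE), edgeR adjusted p = 0.036) were lower, and each lost its call without any of 5 of the 6 plates (edgeR adjusted p up to 0.264 and 0.215), the exception being A1. The myb cells of W1 held 365 CPM of igf2bp1, within the AGM range, and those of W2 151.5 CPM.

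Cells of the mpx gate were compared with both CHT groups present. The fit used A1 to A4 (42, 36, 68 and 98 cells) and W1, W2 and S1 (25, 20 and 29 cells), and S2 had 17 cells and was left out. The CHT cells of this gate were less deep. The median mpx cell had 12239, 17739, 17479 and 16227 UMIs on A1 to A4 and 5050, 8249 and 8424 UMIs on W1, W2 and S1. Of 4965 genes tested 280 were higher in the CHT (5.64%) and 173 lower (3.48%), 9.12% in all, with a median log2 fold change of -0.03. Without S1 the counts were 112 and 88, without W1 148 and 75, without W2 160 and 109, without A3 184 and 90, and without A4 243 and 114. With the gate limits halved they were 465 and 342, and with the limits doubled 184 and 95.

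The granule gene lyz differed within the gate. Lyz stood at 84110, 78697, 91434 and 83898 CPM in the mpx cells of A1 to A4 and at 30436, 33683 and 20595 CPM in those of W1, W2 and S1 (log2 fold change -1.47 ± 0.17 (SE), edgeR adjusted p = 0.00146). It lay lower on every CHT plate than on any AGM plate, and S2 with its 17 cells held 13700 CPM of lyz. Of 19 neutrophil granule and oxidase genes 5 fell and 2 rose (median -0.32), and mpx itself, whose level set the gate, had a log2 fold change of -0.20.

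The 2 that rose were matrix metalloproteinases. Mmp9, a gelatinase, stood at 1945, 1566, 2216 and 2672 CPM on A1 to A4 and at 7187, 6164 and 10922 CPM on W1, W2 and S1 (log2 fold change 2.07 ± 0.25 (SE), edgeR adjusted p = 0.00156). Mmp13a, a collagenase, stood at 3096, 1888, 6818 and 6375 CPM and at 10017, 8932 and 17056 CPM (log2 fold change 1.51 ± 0.42 (SE), edgeR adjusted p = 0.0477), with a call lost without S1 (0.199), W1 (0.098), W2 (0.0873), A1 (0.0772) or A2 (0.0548). The metalloproteinase inhibitor gene timp2b rose with them, at 129, 116, 263 and 229 CPM and at 718, 439 and 1003 CPM (log2 fold change 2.08 ± 0.36 (SE), edgeR adjusted p = 0.00718). Mmp9 and timp2b did not overlap between stages and kept their calls without any 1 plate.

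Of 6 genes of the antigen presentation and interferon list tested in mpx cells 2 rose and 0 fell (median 1.27). The beta-2-microglobulin gene b2ml stood at 52.7, 43.4, 64.9 and 57.8 CPM on A1 to A4 and at 286, 277 and 265 CPM on W1, W2 and S1 (log2 fold change 2.43 ± 0.22 (SE), edgeR adjusted p = 0.000457), and mhc1zba, a class I heavy chain gene, at 87.8, 116, 135 and 135 CPM and at 314, 361 and 276 CPM (log2 fold change 1.52 ± 0.22 (SE), edgeR adjusted p = 0.00335). CHT plates were close to each other in both genes, and the 17 mpx cells of S2 held 118 CPM of b2ml and 249.7 CPM of mhc1zba. B2ml also rose in myb cells (log2 fold change 1.23 ± 0.27 (SE), edgeR adjusted p = 0.0138), a call lost without S1 (0.126) or S2 (0.078). In the few myb cells of these plates, W1 held 101.5 CPM of b2ml, within the AGM range, and W2 held 248 CPM. The difference between the gates was not tested.

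Of 22 immediate early and stress genes 11 rose in mpx cells and 0 fell (median 1.23). Nr4a1 stood at 60.5, 53.5, 45.3 and 45.7 CPM on A1 to A4 and at 153, 102 and 473 CPM on W1, W2 and S1 (log2 fold change 2.44 ± 0.45 (SE), edgeR adjusted p = 0.00953), and the heat shock gene hsp70.3 at 35.1, 23.1, 34.2 and 29.9 CPM and at 83.7, 90.3 and 1314 CPM (log2 fold change 4.20 ± 0.83 (SE), edgeR adjusted p = 0.0135). S1 was the highest plate in both, and without it the log2 fold changes were 1.36 and 1.54 (edgeR adjusted p = 0.043 for each). The list summed to 6699 to 8790 CPM on AGM plates, 11600 and 12430 CPM on W2 and W1, 18390 CPM on S1 and 14920 CPM on S2.

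Foxo3b rose in mpx cells as in myb cells, from 21.5, 11.6, 15.4 and 7.62 CPM on A1 to A4 to 62.7, 102 and 60.6 CPM on W1, W2 and S1 (log2 fold change 2.59 ± 0.42 (SE), edgeR adjusted p = 0.00529). With the gate limits doubled its call in mpx cells was lost (log2 fold change 1.79, edgeR adjusted p = 0.126). Higher CHT levels were not limited to these gates. In cells of no gate foxo3b stood at 46.0 to 62.5 CPM on AGM plates and 87.4 to 195 CPM on CHT plates. The transcription factor gene crema, a myeloid progenitor marker of the study, rose as well (log2 fold change 1.195 ± 0.21 (SE), edgeR adjusted p = 0.00718), and of the 9 markers of that list 5 rose and 1 fell (median 0.79). Cxcr4b (log2 fold change 1.02 ± 0.28 (SE), edgeR adjusted p = 0.0494) lost its call without any of 6 of the 7 plates (edgeR adjusted p up to 0.166), the exception being A1. Igf2bp1 (log2 fold change -1.05 ± 0.29 (SE), edgeR adjusted p = 0.0476) and igf2bp3 (log2 fold change -1.01 ± 0.25 (SE), edgeR adjusted p = 0.034) fell, and their calls were lost without any of 6 of the 7 plates (edgeR adjusted p up to 0.13 and 0.112), the exceptions being A4 and S1.

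**Figure D5:**
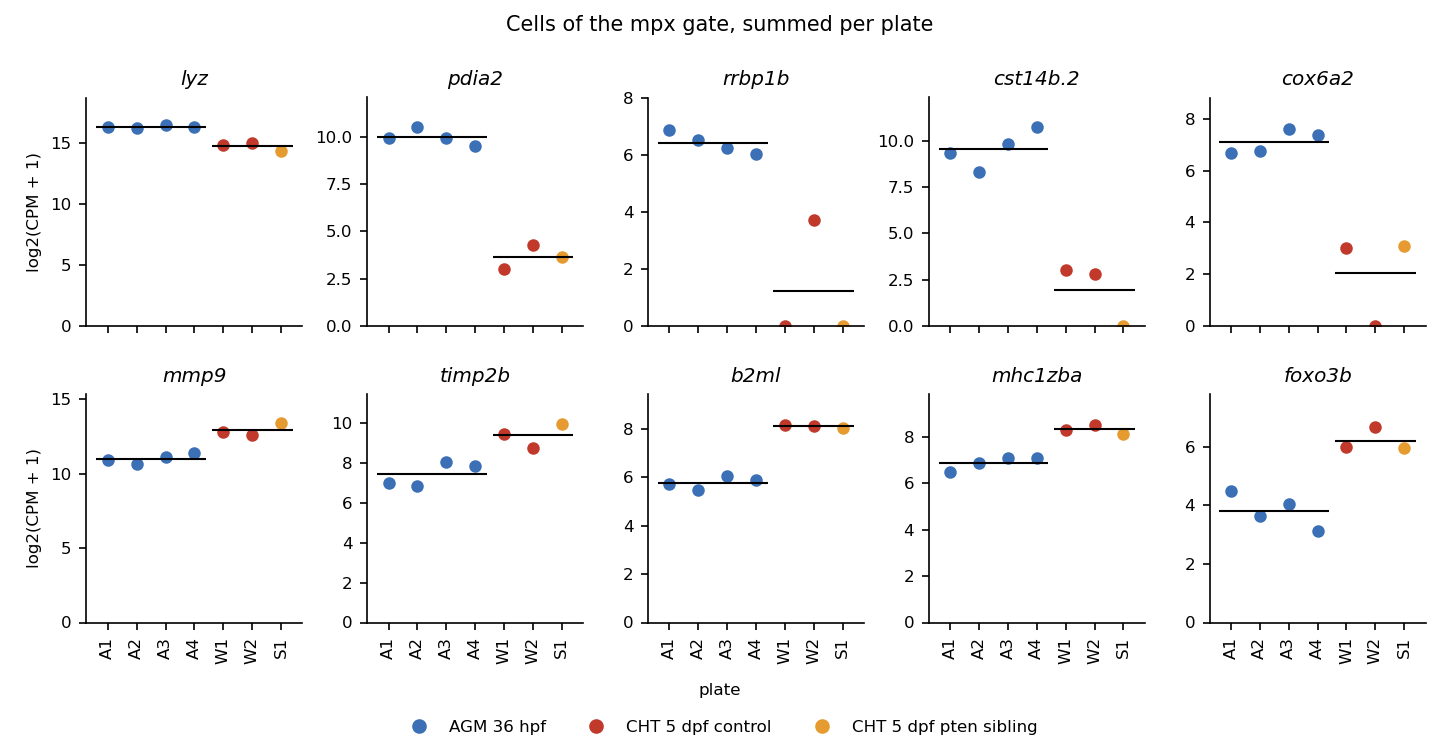
Levels of 10 genes in cells of the mpx gate, as log2(CPM + 1) on the vertical axis, for 4 AGM plates, 2 control CHT plates and 1 sibling CHT plate on the horizontal axis. Points are plates and lines are means of a stage. Lyz, pdia2, rrbp1b, cst14b.2 and cox6a2 are lower on all 3 CHT plates and mmp9, timp2b, b2ml, mhc1zba and foxo3b are higher, without overlap. For pdia2, rrbp1b, cst14b.2 and cox6a2 the rule for naming genes required this.

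The 10 named genes that fell most in mpx cells were cst14b.2, pdia2, cox6a2, fkbp11, rrbp1b, dnase1l4.1, drll.1, CABZ01077217.1, ighm and fhl1b. Cst14b.2 stood at 649.7, 324, 915 and 1749 CPM on A1 to A4 and had 2 UMIs on the 3 CHT plates (lower by 318-fold (95% counting interval 88.0 to 2630)). The protein disulfide isomerase gene pdia2 stood at 993, 1469, 965 and 736 CPM and at 6.97, 18.1 and 11.4 CPM (log2 fold change -6.26 ± 0.38 (SE), edgeR adjusted p = 3.05e-05), and fkbp11 and rrbp1b, also of the endoplasmic reticulum, were lower by 28.8-fold (95% counting interval 5.10 to 1140) and 22.6-fold (95% counting interval 6.20 to 187). Cox6a2, a subunit gene of cytochrome c oxidase, stood at 101, 108, 196 and 166 CPM and at 6.97, 0 and 7.57 CPM (log2 fold change -4.63 ± 0.59 (SE), edgeR adjusted p = 0.00175). Its CHT values rest on few UMIs. The calls of drll.1 (without S1 0.147, W1 0.098 and W2 0.1), CABZ01077217.1 (without W1 0.0504) and fhl1b (without W2 0.0659) were lost without single plates, and cst14b.2, pdia2, fkbp11, rrbp1b and cox6a2 kept theirs.

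The 10 that rose most were hbbe2, mt2, rhag, pvalb2, slc4a1a, AKR1B1, krt91, tal1, s1pr4 and pvalb1. Of these hbbe2, rhag, slc4a1a and tal1 are erythroid genes and pvalb1 and pvalb2 muscle genes. Erythrocyte progenitor markers summed to 3294, 4629 and 992 CPM in the mpx cells of W1, W2 and S1 and to 74.1, 53.5, 126 and 1264 CPM in those of A1 to A4. Outside those classes, the metallothionein gene mt2 stood at 0, 0, 4.27 and 3.81 CPM on A1 to A4 and at 125, 60.2 and 174 CPM on W1, W2 and S1 (log2 fold change 5.55 ± 0.62 (SE), edgeR adjusted p = 0.0012). The sphingosine-1-phosphate receptor gene s1pr4 stood at 7.80, 7.23, 5.13 and 9.53 CPM and at 223, 78.2 and 106 CPM (log2 fold change 4.23 ± 0.42 (SE), edgeR adjusted p = 0.000645). On W1, W2 and S1 both stood above every AGM plate, which the rule for naming these genes required. The calls of pvalb2 and pvalb1 were lost without S1 (0.0548 and 0.0743) or W1 (0.0593 and 0.0843).

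The control and sibling CHT plates, which differ in their label (wild type or pten sibling), in sort day and possibly in vehicle, were not alike. Of 11742 genes 387 were higher (3.3%) and 512 lower (4.36%) on S1 and S2 than on W1 and W2, 7.66% in all, but the count of 899 fell to 97 without S1, 18 without S2 and 565 without W2. Of 11 globins tested 10 were lower on the sibling plates, among them hbae3 with a log2 fold change of -2.55 ± 0.14 (SE, edgeR adjusted p = 0.00699). The other, hbbe3, was higher (log2 fold change 2.07, edgeR adjusted p = 0.0369). The transcript si:ch211-121a2.2 stood at 318 and 382 CPM on W1 and W2 and at 0.19 and 1.44 CPM on S1 and S2 (log2 fold change -8.99, edgeR adjusted p = 0.00699). The clock gene nr1d4b stood at 6.13 and 5.98 CPM on W1 and W2 and at 59.2 and 53.8 CPM on S1 and S2 (log2 fold change 3.03, edgeR adjusted p = 0.00699), and both examples were chosen after their values were seen.

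Ptena and ptenb encode lipid phosphatases that counter PI3K. Over all cells ptenb stood at 115, 129, 112 and 108 CPM on A1 to A4 and at 64.2, 48.1, 55.2 and 45.9 CPM on W1, W2, S1 and S2 (log2 fold change -0.86 ± 0.16 (SE), edgeR adjusted p = 0.00205), and ptena at 98.9, 107, 114 and 99.99 CPM and at 77.2, 69.7, 79.5 and 67.5 CPM (log2 fold change -0.27 ± 0.16 (SE), edgeR adjusted p = 0.18). With cells thinned to 1500 UMIs the call of ptenb was lost (log2 fold change -0.364, edgeR adjusted p = 0.164). Without the erythroid gates ptenb had a log2 fold change of 0.69 and did not pass the test (edgeR adjusted p = 0.0644). In the CHT ptenb stood at 23.9 to 43.9 CPM in the alas2 gate against 159 to 222 CPM in the mpx gate. The pten genotype of S1 and S2 is not given in the sources used here. The crosses that the study describes for imaging were of ptena+/-ptenb-/- fish, so ptenb may be mutant on these plates.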

How the data were processed

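SORT-seq counts of 8 of the 20 plates were analysed, 384 wells each. The deposited values are estimated counts: the authors mapped reads to the Zv9 transcriptome with BWA (both named in the submitters' processing notes), counted UMIs per gene and well and corrected them for UMI collisions, so that they need not be whole. The table holds 25000 gene IDs, 19151 with a symbol. Versions of these upstream tools are not given in the sources used here.

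From the deposited counts, wells of 1500 UMIs or more without krt4 at 1000 CPM were summed per plate, over all cells or over the cells of a gate (at least 20 cells a plate), rounded to whole counts and tested with edgeR 4.0.16 (filterByExpr, TMM factors, quasi-likelihood test, Benjamini-Hochberg adjustment over all genes tested, threshold 0.05) in R 4.3.3. The SE of a log2 fold change is its size divided by the square root of F. CPM are relative to all UMIs of the summed cells. Shares of cells were compared by exact permutation over plates (scipy 1.17.1, two-sided), with Wilson intervals. Floors are 3 counts. Intervals and floors cover counting error only. DESeq2 1.42.0, RLE factors, limma 3.58.1 and other cell, gate and filter settings were alternatives. Doublets were not called, and dropping the 2% of cells of highest depth was an alternative. No cells had identical values, and the 384 well barcodes are shared by all plates by design of the method.

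On simulated counts with 4-fold changes (log2 of 2), edgeR called 75 of 92 changed genes for all cells, 63 of 89 for myb cells and 69 of 91 for mpx cells. At 2-fold (log2 of 1) it called 7 of 94, 12 of 93 and 20 of 88. The simulated counts covered 11509, 7701 and 4397 genes in that order. Few of these were changed, whereas 46.4% of the genes tested were called in the reported all-cell comparison. The share of changes of these sizes found in the reported comparisons was not tested. Named genes were the 12 (all cells) or 10 (gates) furthest from 0 on each side by log2 fold change. They were taken from genes with a symbol, an adjusted p under 0.05 and stages that did not overlap. Their mean was at least 50 CPM in the higher stage. This rule left out skin, globin and mitochondrially encoded genes in the all-cell fit, and gate genes in the gate fits. Of 18 skin genes tested over all cells 3 rose and 8 fell (median -1.26). Markers of the study, the most abundant members of 26 lists and preset genes of the lin28, DNA methylation and pten groups were also eligible. For genes named by that rule, non-overlap between stages was thus required and is no separate result. Members and lists were chosen with earlier results of these data known. Replicates are plates. The study pooled dissected tissue of many embryos before sorting. A1 and A2, A3 and A4, W1 and W2, and S1 and S2 each share a sort day, so plates may be parts of the same pool. The labels do not say that they came from separate clutches. The p-values thus measure the spread between plates, not between independent pools of embryos. Whole plates were used, and the plate layout was not analysed here. One gene is not reported here.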

Additional observations from a re-analysis of the deposited data

Results flagged for a closer look

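In 78 groups of 4 plates examined, 10 had a single plate far from the other 3. The limit used gives about 1 in 20 by chance for values that are spread normally. That rate does not hold for groups near 0, where any count on 1 plate and 0 on the others passes the limit. The 10 were thus not compared with chance. Among the CHT plates, W2 held the only cdh5 gate cells (0.778% against 0 on the others) and cdh5 stood at 3.65 CPM there, against 0.19 to 0.721 CPM elsewhere. S2 stood apart with 14.7 CPM of si:dkey-21e2.13 (others 162 to 168), 187 CPM of pvalb4 (others 4.57 to 7.97), 4.57 CPM of cst14b.2 (others 0.361 to 0.761) and 2613 CPM summed over the neutrophil granule and oxidase list (others 4812 to 5111).

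Among the AGM plates, single plates held the few UMIs of genes that were near 0: si:dkey-21e2.4 at 0.795 CPM on A1, nr1d1 at 0.21 CPM on A4 and pvalb4 at 0.465 CPM on A3, each with 0 on the other plates. A4 also had 628 CPM over the muscle list, against 72.2 to 155 CPM on A1 to A3, and held 3 muscle-high cells.

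Of the 24 named genes of the all-cell comparison, 2 differed between sibling and control CHT plates by edgeR. That is near the share over all genes tested between these plates (7.66%). The clock gene nr1d1 was higher on the sibling plates (log2 fold change 1.01, SE 0.188, adjusted p = 0.0385) and lamc3 was lower (log2 fold change -0.995, SE 0.139, adjusted p = 0.0254). Genotype and sort day cannot be told apart in that comparison.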

How the results depend on the processing

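Over all cells, 2611 genes were higher and 3038 lower. The higher count was 1723 without scaling factors and 1236 with limma on mean CPM, cells thinned to 1500 UMIs gave 954 and 1053, leaving out the erythroid gates gave 654 and 349, and leaving out 1 plate gave 2120 to 2810 and 2659 to 3176. In myb cells (718 and 409) the lower count was 269 with DESeq2 and 891 without a filter, thinning gave 197 and 72, the widened gate 2023 and 2040, and leaving out 1 plate 215 to 862 and 47 to 458. In mpx cells (280 and 173) the lower count was 523 without a filter and the higher count 172 with at least 3000 UMIs a cell. Halved limits gave 465 and 342, doubled limits 184 and 95, thinning 96 and 62, control CHT plates alone 112 and 88, sibling plates alone 89 and 31, and leaving out 1 plate 112 to 276 and 75 to 154. The CHT groups differed in 899 genes, 2458 without a filter and 18 to 840 without 1 plate.

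For shares of cells (CHT minus AGM, percentage points), 4 against 2 plates cannot go below an exact p of 0.133. Control CHT plates alone gave -12.3 (cdh5), -12.0 (mpx), -16.5 (mfap4), 54.3 (alas2), 21.2 (gata1a or klf1) and -24.2 (myb). Sibling plates alone gave -12.7, -13.7, -17.2, 27.1, 38.2 and -15.2 in that order. Leaving out 1 plate gave -16.0 to -8.31, -16.0 to -9.84, -17.4 to -16.0, 35.8 to 45.2, 25.9 to 33.1 and -22.2 to -17.9. The myb difference was -7.92 with doubled limits and 1.74 with cells thinned before gating. Between 13 and 15 of the marker lists lay above the median of all genes without 1 plate.

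Without the erythroid gates the sign turned for the medians of DNA replication (-0.22), antigen presentation (0.97), glycolysis (0.31), stress (0.63), chemokine (0.99) and myeloid progenitor lists (0.87), and for slc40a1 (0.39), mpx (0.23), dnmt1 (-0.10), cebpb (1.102), ptenb (0.69) and slc25a38a (0.20). Thinning turned the antigen presentation (0.27), chemokine (0.49) and PI3K medians (-0.17). The all-cell calls of cebpb (-0.125) and ptenb (-0.364) were lost with thinning. The widened myb gate turned nr4a1 (-0.50), b2ml (-0.19), cxcr4b (-0.25), cebpb (-1.37), ptenb (-0.65) and si:ch211-121a2.2 (0.79). The cause was not tested. For the 68 genes named over all cells, 1635 other values kept direction and call and 39 lost the call. For 43 genes in myb cells these were 482 and 67, and for 38 in mpx cells 479 and 103.

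No paired analysis was possible because the labels give the plates no replicate numbers, and the numbers used here only name the plates. Control CHT plates alone could not be fitted in myb cells, where they held 12 and 7 cells. Depth limits genes with few UMIs. The simulated 2-fold changes were mostly missed, in counts where few genes were changed. The share of such changes missed in the reported comparisons was not tested.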
